A study of Mus musculus with 6 samples.

Results

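The cytosolic ribosomal protein genes of the mouse were followed through a bone marrow culture with Flt3 ligand (Flt3L), a cytokine that drives dendritic cell development. They were taken by symbol as the genes named Rpl, Rplp or Rps with a number and at most 1 trailing letter, plus Rpsa, which gave 81 of the 21761 genes in the deposited table. Of these, 49 code for large subunit and 32 for small subunit proteins or close paralogs of them. The RNA-seq data comprise 6 libraries from male C57BL/6J mice. Cells kept for 4 days with a supernatant that contained Flt3L gave libraries I and II of day 4, which are titled CMP (common myeloid progenitor). Cells kept for 7 days gave libraries III and IV of day 7, titled BMDC (bone marrow derived dendritic cell), and uncultured marrow gave libraries II and III of day 0. The supernatant came from a transfected SP2/0 line, a mouse myeloma line, and the labels report that every live cell was taken at days 4 and 7, with no sort. The labels do not state that libraries of 1 day came from separate mice or cultures, and p-values reflect the spread among these libraries alone, part or all of which may be technical.

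Each ribosome carries 1 copy of nearly every ribosomal protein, and the genes are among the most abundantly transcribed in growing cells. Most vertebrate ribosomal protein mRNAs begin with a C and a run of pyrimidines, the TOP motif (terminal oligopyrimidine), through which mTOR signalling controls their translation. In marrow the family is known for Diamond-Blackfan anaemia, an inherited failure of red cell production caused by loss of 1 copy of any of several of these genes in humans.

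The region around the transcription start is shown for 9 genes that differ in how much they changed, so that their starts can be set side by side. Windows run from 25 bases before to 15 after the RefSeq start on GRCm38.p6 and are written 5′ to 3′ on the gene's own strand. Capitals mark the longest run of a C followed by at least 4 pyrimidines that reaches into the 10 bases on either side of the start.
Rpl39 (chrX:37085208-37085247, minus strand): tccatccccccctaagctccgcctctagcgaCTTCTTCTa
Rpl38 (chr11:114668555-114668594, plus strand): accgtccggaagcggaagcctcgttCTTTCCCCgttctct
Rplp2 (chr7:141447626-141447665, plus strand): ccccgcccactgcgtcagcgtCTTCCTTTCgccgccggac
Rps28 (chr17:33824548-33824587, minus strand): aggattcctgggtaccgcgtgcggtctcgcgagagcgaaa
Rps27l (chr9:66946061-66946100, plus strand): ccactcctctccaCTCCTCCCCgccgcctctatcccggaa
Rps27 (chr3:90213634-90213673, minus strand): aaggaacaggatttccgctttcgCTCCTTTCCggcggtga
Rplp0 (chr5:115559442-115559481, plus strand): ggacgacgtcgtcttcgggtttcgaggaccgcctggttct
Rpl4 (chr9:64173362-64173401, plus strand): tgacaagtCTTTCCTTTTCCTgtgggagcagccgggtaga
Rps6 (chr4:86857353-86857392, minus strand): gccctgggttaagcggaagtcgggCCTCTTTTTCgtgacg
The first 5 genes are among those with the largest changes at day 7, and the last 3 among those with the smallest. A run stands at or near the start of Rpl38 and Rplp2 and also of Rps6.

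Of the 81 genes, 60 had a promoter in the RefSeq table of 27025 genes. A gene was counted for a motif if any of its annotated starts had it, so genes with several starts had more chances. A C followed by at least 4 pyrimidines began exactly at the annotated start in 13 of the 60 (21.7%), against 3.01% of all genes in the table, and began within 10 bases of it in 38 (63.3%), against 34.4% of all genes. In the 300 bases from 250 before to 50 after the start, searched on both strands, CCGGAA, the core of ETS factor sites, was found in 33 genes (55%), against 16.7% of all genes. GGGCGG, the Sp1 box, was found in 60% against 38.2%, and AAGATGGC, the YY1 site, in 8.33% against 3.19%. The NRF1 site was found in 3.33% against 1.07%. CACGTG, the E box bound by MYC, was found in 10% against 8.09%, and TATAAA, the TATA box, in 10% against 15.7%. The median log2 fold change at day 7 against day 4 was 2.94 in 35 genes with a pyrimidine run within 10 bases and 2.86 in 22 genes without one, leaving out 3 of the 60 that are paralogs of low level. Over the same genes it was 2.87 in 32 genes with CCGGAA and 2.94 in 25 without it, while at day 7 against day 0 it was 2.75 with CCGGAA and 2.35 without it. These medians are a description, with no test.

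Depth rose with day of culture. The fresh marrow libraries held 322837 and 157797 reads in genes, those of day 4 had 1365635 and 3852628, and those of day 7 had 16149088 and 10951745. On a transcript of 1 kb, 1 read amounts to 3.10 and 6.34 RPKM in fresh marrow but only 0.0619 and 0.0913 RPKM by day 7. Both day 0 libraries had the same label but differed in the family, as described next. Marker genes of other cell types moved with the days too, listed day 0, 4 and 7 with the 2 libraries of each: 10 erythroid markers summed to 78979.8 and 39403, 3714 and 4001, and 47.8 and 63.9 RPKM, with Alas2 and Slc4a1 at 0 in both day 7 libraries. The 12 neutrophil markers summed to 66567 and 8637, 48166 and 36344, and 179 and 167 RPKM, with Cebpe, Fcnb, Mpo and Prtn3 at 0 in both day 7 libraries. The 11 macrophage markers found summed to 135 and 123, 233 and 142, and 11333 and 12113 RPKM. The 10 early progenitor markers, which would mark the labelled CMP, summed to 106 and 138, 64.6 and 75.6, and 7.03 and 6.26 RPKM, so they were no higher at day 4 than in fresh marrow. The 12 dendritic markers summed to 106 and 98.6, 147 and 45.7, and 1372 and 1545 RPKM. At day 7 Bst2 and the MHC class II gene H2-Ab1 made up most of that sum. Zbtb46, which defines conventional dendritic cells, stood at 0.0288 and 0.0283 RPKM there, and Xcr1 and Clec9a at 0.528 and 0, and 0.703 and 0 RPKM. Itgax, which codes for CD11c, stood at 24.7 and 25.9 RPKM at day 7, against 6.40 and 2.03 at day 4 and 4.16 and 0 at day 0. Irf8, a transcription factor of dendritic cells and monocytes, stood at 38.8 and 35.6 RPKM at day 7, against 7.5 and 4.78 at day 4 and 14.9 and 15.2 at day 0. The part that the mix of cells, depth or any of these markers plays in the results below was not tested. In bulk samples, fewer cells of a type and less RNA per cell cannot be told apart.

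In fresh marrow the 81 genes together took 2.75% of all reads in genes in library II and 0.726% in library III, with exact 95% intervals (Clopper-Pearson) of 2.70 to 2.81 and 0.684 to 0.769. On day 4 they took 0.871% in library I (0.855 to 0.887) and 1.14% in library II (1.13 to 1.15). On day 7 they took 4.62% in library III (4.61 to 4.63) and 5.0% in library IV (4.99 to 5.02). Intervals cover counting error only. Both day 7 libraries lay above all 4 others, and the 2 day 0 libraries lay on either side of the day 4 pair. The mean share was 4.81% ± 0.275 at day 7 against 1.01% ± 0.190 at day 4 (SD, n = 2 each), and 1.74% ± 1.43 at day 0 (SD, n = 2). With 2 libraries per day an exact two-sided permutation test of this share cannot go below p = 0.333. It gave that value for day 7 against day 4 and for day 7 against day 0, so it cannot decide either comparison.

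Haemoglobin reads took 9.67% and 5.02% of all reads in fresh marrow, 0.476% and 0.490% by day 4, then 0.00285% and 0.00505% by day 7. With haemoglobin genes left out of the total, the ribosomal protein share at day 0 was 3.05% and 0.764%, so the gap between the day 0 libraries was as wide without them. The share of summed RPKM, which does not weight genes by length, ran 5.62% and 2.01% in fresh marrow, 2.14% and 2.79% by day 4, then 10.7% and 11.2% by day 7.

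Leaving out 4 low paralogs (Rpl3l, Rpl10l, Rpl39l and Rps4l), which reached at most 15.9 RPKM in any library, the median of the other 77 genes was 283 and 70.1 RPKM in fresh marrow, 79.2 and 109.5 RPKM by day 4, then 676 and 691 RPKM by day 7. Of the 500 genes with the highest RPKM, the family supplied 66 and 43 in fresh marrow, 33 and 35 by day 4, then 70 in each day 7 library. The most abundant member was Rpl13 and Rplp0 at day 0, Rpl9 and Rplp0 at day 4, and Rplp1 in both day 7 libraries. The SD of log2(RPKM + 1) over the 77 genes was 1.79 and 1.92 in fresh marrow, 1.51 and 1.6 by day 4, then 1.26 and 1.29 by day 7. Depth rose over the same days, and the lowest of these genes was at 0 in both fresh marrow libraries. The part that depth plays in this SD was not tested.

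Libraries of the same day agreed to different degrees. Across the 77 genes, as a description with genes sharing the libraries, Pearson's r on the log2 scale was 0.743 for the pair from day 0, 0.968 for that from day 4 and 0.991 for that from day 7. At day 0, 75 of 77 genes were higher in library II than in library III, with a median ratio of 3.71. Among the 81 genes 6 had 0 reads in library III, namely Rps28, Rps21, Rpl36, Rpl34, Rpl10l and Rpl39l. Any comparison with day 0 rests on both of these libraries, and values are given below with each left out.

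**Figure D1:**
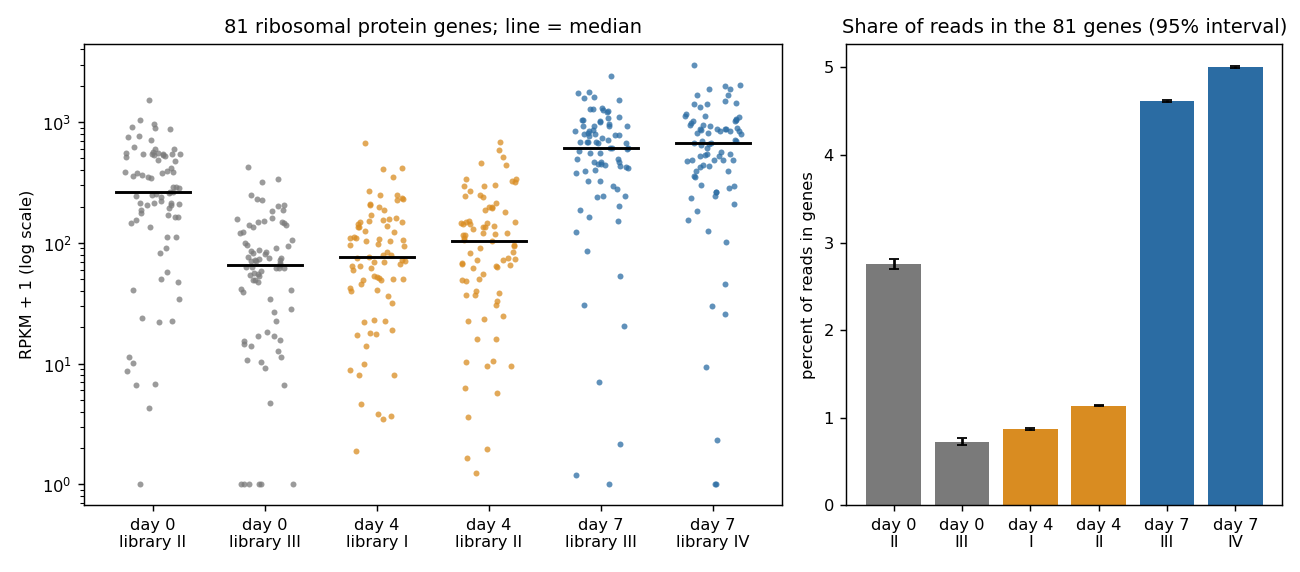
Left, RPKM + 1 (log axis) of each of the 81 ribosomal protein genes in each of the 6 libraries, with a line at the median. Right, the percent of reads in genes that fell in the 81 genes, with exact 95% intervals for counting error. Both day 7 libraries lie above the other 4, at 4.62% and 5.0% of reads, and the day 0 libraries are far apart, at 2.75% and 0.726%.

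The comparison of day 7 with day 4 asked what changed over the last 3 days of culture. The family was higher at day 7, by a median log2 fold change of 2.78, while the median of all 19279 genes tested was -0.81 and that of 2883 other genes averaging 20 RPKM or more was 0.35. In limma, at an adjusted p under 0.05 over all genes tested, 45 of the 81 genes rose and 0 fell. Over all genes tested 5.85% were called higher and 6.75% lower. At an unadjusted p under 0.05, 64 genes were higher and 0 lower. Both day 7 libraries lay above both day 4 libraries for 77 of the 81 genes, against 19.6% of all genes tested. The exceptions were the 4 low paralogs: Rpl3l, Rpl39l and Rps4l overlapped between the days, and Rpl10l was at 0 reads in both day 7 libraries, against 4 and 1 reads at day 4. Over all genes tested 57.6% lay lower in both day 7 libraries.

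Of the 49 large subunit genes 27 rose (median 2.55) and of the 32 small subunit genes 18 rose (median 2.85). Both counts are near the share of the whole family, in which 45 of 81 rose. The 4 genes of the P stalk, the flexible arm of the large subunit that draws elongation factors to the ribosome, differed in their change. Rplp1, whose protein forms the stalk's tip in a pair with that of Rplp2, had 2401 and 2974 RPKM at day 7, against 48.5 and 81 RPKM at day 4, a log2 fold change of 5.39 ± 0.63 (SE, adjusted p = 0.00158). Rplp2 had 1569 and 1690 RPKM at day 7, against 58.1 and 67.1 RPKM at day 4 (4.68 ± 0.72, adjusted p = 0.00521). Rpl12, which sits at the stalk's base, had 492 and 538 RPKM at day 7, against 60.8 and 36.2 RPKM at day 4 (3.43 ± 0.59, adjusted p = 0.00877). Rplp0, the base on which the pairs assemble, had 932 and 1041 RPKM at day 7, against 349 and 687 RPKM at day 4, and did not pass the test (1.01 ± 0.68, adjusted p = 0.326).

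The 2 genes of the stalk's tip thus stood above Rplp0 at day 7 and below it before. The ratio of Rplp1 to Rplp0 RPKM, a comparison of levels per length, was 2.58 and 2.86 at day 7, against 0.139 and 0.118 at day 4 and 0.407 and 0.319 at day 0. The ratio of Rplp2 to Rplp0 was 1.68 and 1.62 at day 7, against 0.166 and 0.0977 at day 4 and 0.374 and 0.169 at day 0.

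**Figure D2:**
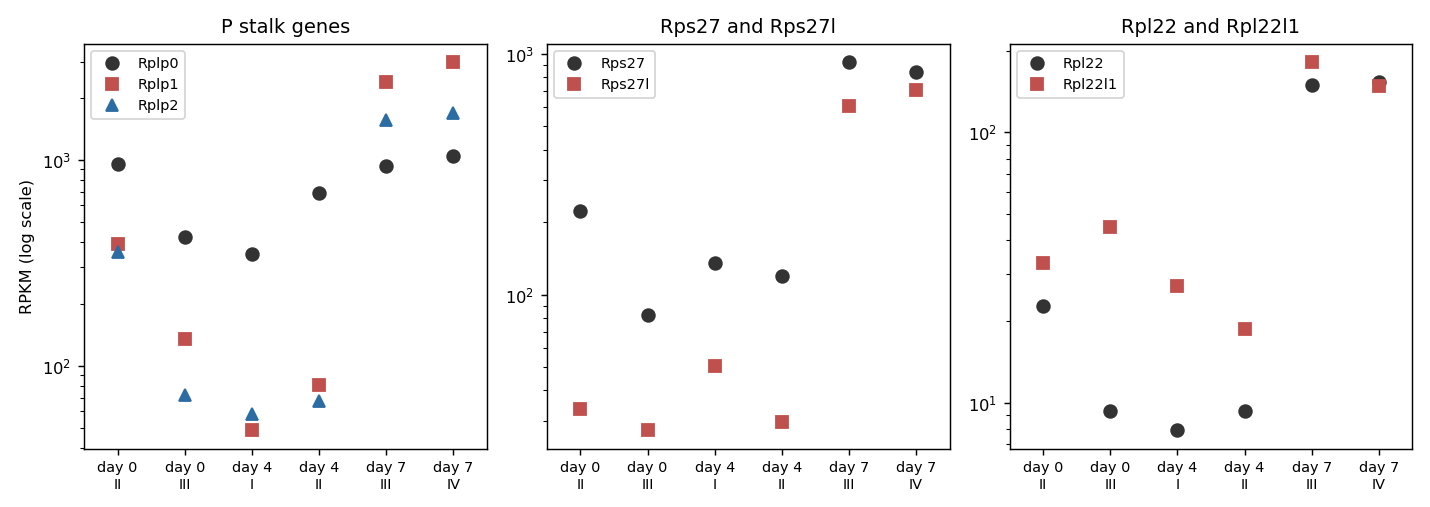
RPKM (log axis) in each of the 6 libraries of 3 P stalk genes, of Rps27 and its paralog Rps27l, and of Rpl22 and its paralog Rpl22l1. At day 7 Rplp1 and Rplp2 lie above Rplp0, and Rps27l lies close to Rps27.

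Rpl39 and Rpl38 code for very short proteins. Rpl39, whose protein lines the exit tunnel, had 849 and 1015 RPKM at day 7, against 16.7 and 21.7 RPKM at day 4 (5.53 ± 0.77, adjusted p = 0.00332), the largest change in the family. Rpl38, mutated in the Tail-short mouse, had 468 and 542 RPKM at day 7, against 16.8 and 14.9 RPKM at day 4 (4.91 ± 0.37, adjusted p = 3.12e-04). For both genes the day 7 values lay far outside the spread of each pair. The day 4 values of Rpl38 came from 10 and 25 reads, and those of Rpl39 from 9 and 33. Rpl22, needed for T cell development in mice, had 150.2 and 154 RPKM at day 7, against 7.90 and 9.29 RPKM at day 4 (4.00 ± 0.45, adjusted p = 0.00139). Rpl36a had 322 and 295 RPKM at day 7, against 18.0 and 22.3 RPKM at day 4 (3.88 ± 0.91, adjusted p = 0.0287).

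Of the 8 genes whose proteins lie around the exit tunnel, where the new chain leaves the ribosome, 5 rose: Rpl22, Rpl26, Rpl31, Rpl35 and Rpl39. The other 3, Rpl17, Rpl19 and Rpl23a, were higher at day 7 in both libraries without passing the test. As 45 of the 81 members rose, 5 of 8 is near the family's own share and is no result about the tunnel. Rpl26 is one of the lowest members, with 29.8 and 24.7 RPKM at day 7, against 2.70 and 8.60 RPKM at day 4 (2.24 ± 0.56, adjusted p = 0.036). The deposited data also hold rows for processed copies of some ribosomal protein genes. How reads shared with such near-identical copies were assigned is not given in the sources used here, so the levels of Rpl26, Rpl34, Rps15a and Rps24 are uncertain. RPKM also divides by the deposited gene length, which is 5134 bases for Rps15a and 7304 for Rps24. Rps15a had 4300 and 2507 reads at day 7 and Rps24 9954 and 8020. Rpl26 had only 261 and 147 reads there, and Rpl34 189 and 191.

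In the small subunit, Rps29, mutated in some patients with Diamond-Blackfan anaemia, had 1293 and 1433 RPKM at day 7, against 48.8 and 54.6 RPKM at day 4 (4.69 ± 0.58, adjusted p = 0.00197). Rps26, which sits at the mRNA exit channel, had 1029 and 1324 RPKM at day 7, against 63.7 and 109.5 RPKM at day 4 (3.79 ± 0.77, adjusted p = 0.0163). Rps21 and Rps28 showed changes as large that did not pass. Rps21 had 400.2 and 394 RPKM at day 7, against 16.4 and 9.57 RPKM at day 4 (4.87 ± 1.45, adjusted p = 0.0636), and Rps28 had 684 and 699.8 RPKM at day 7, against 22.0 and 36.3 RPKM at day 4 (4.56 ± 1.38, adjusted p = 0.0667). The 3 days share 1 estimate of spread for each gene, and both genes had 0 reads in day 0 library III.

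Among the genes with the smallest changes were several of long coding sequence. Rps6, the target of S6 kinase downstream of mTOR, had 428 and 434 RPKM at day 7, against 235 and 293 RPKM at day 4 (0.71 ± 0.79, adjusted p = 0.5). Rpl4 had 464 and 484 RPKM at day 7, against 246 and 337 RPKM at day 4 (0.72 ± 0.57, adjusted p = 0.385), and Rpl3 had 242 RPKM in both day 7 libraries, against 102 and 148 RPKM at day 4 (0.97 ± 0.63, adjusted p = 0.312). Rpsa, which also codes for a laminin receptor, had 296 and 283 RPKM at day 7, against 111 and 144 RPKM at day 4 (1.19 ± 0.62, adjusted p = 0.231). In all 4 genes both day 7 libraries were above both day 4 libraries. A p that misses the threshold does not show that these genes did not change.

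**Figure D3:**
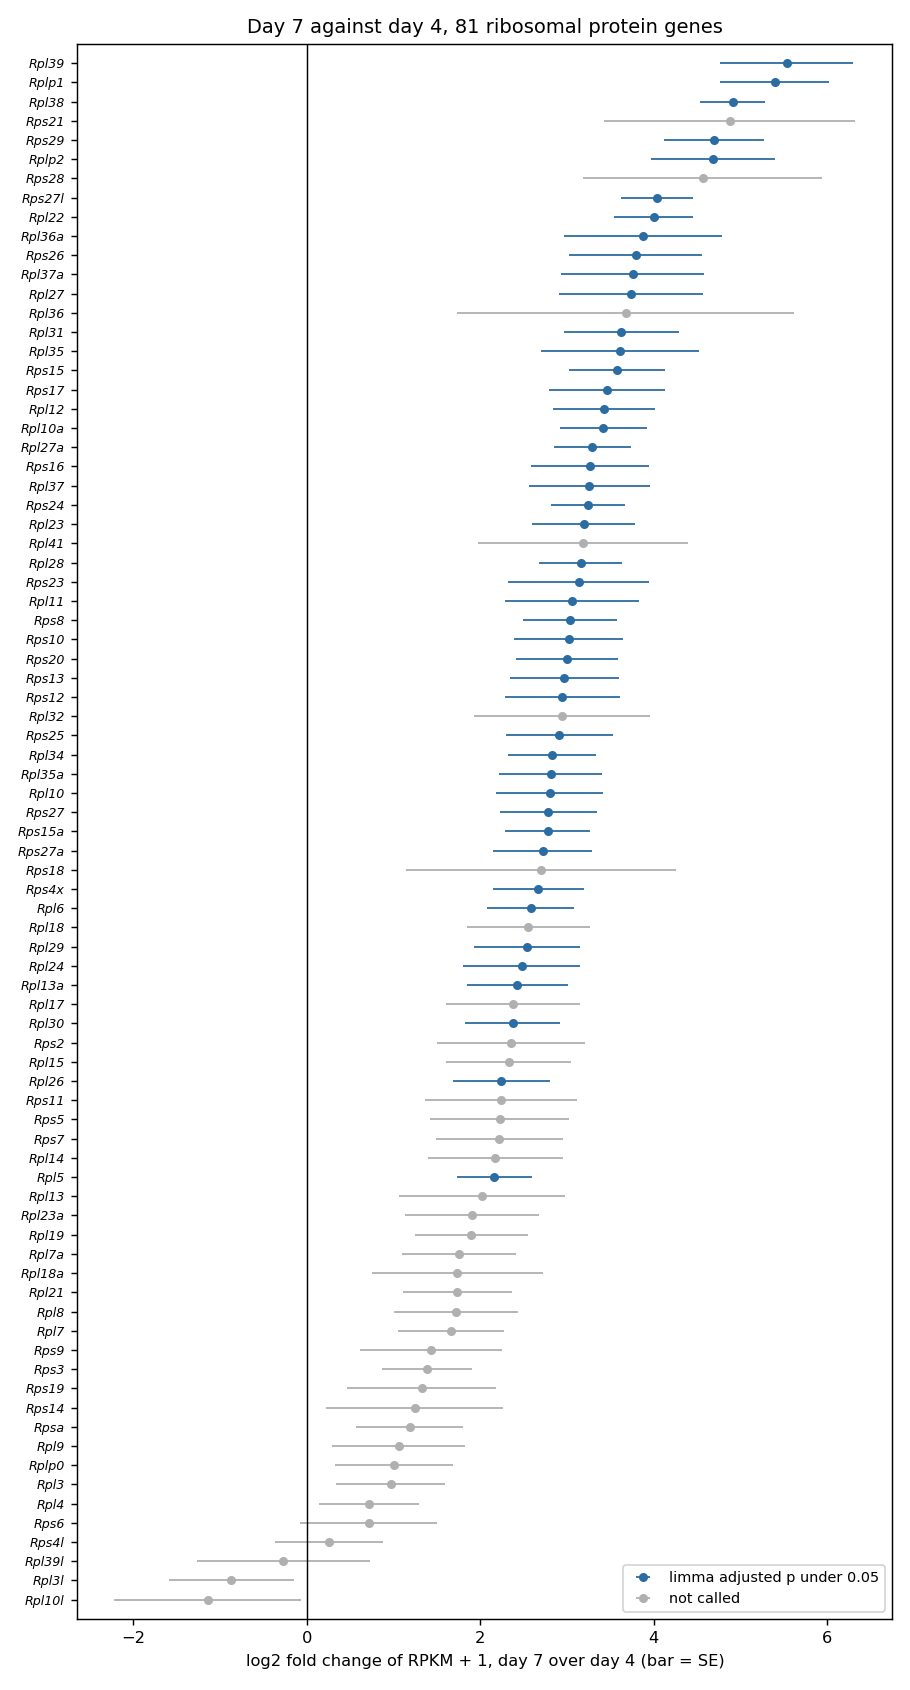
Log2 fold change of RPKM + 1, day 7 over day 4, for the 81 genes in order of size, with bars of 1 SE. Blue points are the 45 genes with an adjusted p under 0.05, all to the right of 0, and Rpl39 and Rplp1 lie highest at 5.53 and 5.39.

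Of the 19 genes tied to Diamond-Blackfan anaemia in humans, 14 rose and 0 fell (median 3.02), beside 45 of 81 in the whole family (median 2.78). Rps19, the gene most often mutated in the disease, had 417 and 427 RPKM at day 7, against 147 and 193 RPKM at day 4, and was not called (1.32 ± 0.86, adjusted p = 0.311). Rpl11, whose protein binds MDM2 when ribosome assembly fails and so stabilizes p53, had 122 and 125 RPKM at day 7, against 13.1 and 14.9 RPKM at day 4 (3.06 ± 0.78, adjusted p = 0.0384). Rpl5, its partner in that complex, had 245 and 265 RPKM at day 7, against 49.7 and 63.5 RPKM at day 4 (2.16 ± 0.43, adjusted p = 0.0156). Of the 8 genes whose proteins have been reported to bind MDM2, 5 rose: Rpl5, Rpl11, Rpl23, Rpl26 and Rps27l. With 45 of the 81 members called higher, this count is near the family's own share and is no result about MDM2 binding.

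The calls depended on which libraries entered the fit, in the family and over all genes tested. A fit without 1 library left 1 day with a single library, so only sizes of change are given here. The median log2 fold change of the family was 2.61 without day 4 library I, against -0.37 over all genes tested. It was 2.93 without day 4 library II, against -1.12 over all genes tested. Without day 7 library III or IV it was 2.72 and 2.70, and without either day 0 library 2.78.

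The comparison of day 7 with day 0 set the cultured cells against fresh marrow. Of the 81 genes 46 rose and 1, Rpl3l, fell, while 11.3% of all genes tested were called higher and 29.3% lower. The median log2 fold change of the family was 2.18, against -1.14 over all genes tested and 1.20 in the 2883 other genes averaging 20 RPKM or more. It was 2.17 when Rpl34, at 0 reads in both day 0 libraries, and Rpl10l, at 0 reads in both day 7 libraries, were set to the bound that 3 reads per library allow. Both day 7 libraries lay above both day 0 libraries for 69 genes, against 19.6% of all genes tested. Rpl3l lay lower in both day 7 libraries, as did 50.8% of all genes tested. The 11 that overlapped were Rpl10l, Rpl39l, Rps4l, Rpl3, Rpl4, Rpl7a, Rpl21, Rplp0, Rps2, Rps6 and Rpsa.

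Rpl38 had 468 and 542 RPKM at day 7, against 21.3 and 14.5 RPKM at day 0 (4.76 ± 0.37, adjusted p = 3.32e-04), where those values came from 3 and 1 reads. Rpl39 had 849 and 1015 RPKM at day 7, against 110.1 and 16.1 RPKM at day 0 (4.42 ± 0.77, adjusted p = 0.00637). Rpl37a, which codes for a zinc finger protein of the large subunit, had 1084 and 981 RPKM at day 7, against 169 and 21.6 RPKM at day 0 (4.06 ± 0.82, adjusted p = 0.0108). For each of the 3, the lower day 7 value exceeded the higher day 0 value several times over.

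The 3 genes with the largest fitted values had 1 day 0 library at 0 reads, so that their fitted size depends on the value added before the log. Rps28 had 684 and 699.8 RPKM at day 7, against 40.0 and 0 RPKM at day 0 (6.76 ± 1.38, adjusted p = 0.0109), where 40.0 RPKM stood for 6 reads. Rpl36 had 929 and 884 RPKM at day 7, against 213 and 0 RPKM at day 0 (5.95 ± 1.94, adjusted p = 0.0411), and Rps21 had 400.2 and 394 RPKM at day 7, against 49.6 and 0 RPKM at day 0 (5.81 ± 1.45, adjusted p = 0.0197). Rpl34 had 19.7 and 29.3 RPKM at day 7, against 0 reads in both day 0 libraries. Its day 7 mean was at least 1.03-fold higher than the mean of 3 reads per day 0 library, a bound of 23.8 RPKM, so the depth at day 0 cannot show the size of this change. Rpl3l, the muscle paralog of Rpl3, had 0.194 and 1.32 RPKM at day 7, against 5.83 and 15.9 RPKM at day 0 (-2.69 ± 0.72, adjusted p = 0.0235), and those day 0 values came from 3 and 4 reads.

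Some genes called at day 7 against day 4 were not called against fresh marrow. Rpl5 had 245 and 265 RPKM at day 7, against 238 and 144 RPKM at day 0 (0.46 ± 0.43, adjusted p = 0.393). Rps4x, the X-linked copy of the small subunit gene, had 689.5 and 675 RPKM at day 7, against 549 and 337 RPKM at day 0 (0.66 ± 0.52, adjusted p = 0.314). Rpl4 and Rpl3 passed the test in neither comparison. Rpl4 had 464 and 484 RPKM at day 7, against 706 and 321 RPKM at day 0 (-0.01 ± 0.57, adjusted p = 1), and Rpl3 had 242 RPKM in both day 7 libraries, against 543 and 149 RPKM at day 0 (-0.24 ± 0.63, adjusted p = 0.769). The day 0 pair lay on both sides of the day 7 pair for Rpl4, and likewise for Rpl3. Without day 0 library II, 70 genes were called higher at day 7 and 1 lower, with a median of 3.34, and without day 0 library III, 42 higher and 3 lower, with a median of 1.21. Without day 4 library I or II the day 7 against day 0 calls were 14 higher each, and without day 7 library III or IV they were 12 and 10. Quantile normalization left 5 genes higher and 2 lower, with a median of 0.82.

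The comparison of day 4 with day 0 covered the first 4 days of culture, and in it no direction held for the family. In limma 0 genes were called higher and 0 lower, while 3.66% of all genes tested were called higher and 1.92% lower. At an unadjusted p under 0.05, 1 was higher and 10 lower, and limma-voom on the recovered reads called 0 higher and 1 lower. The median log2 fold change was -0.43, against -0.40 over all genes tested and 0.86 in the 2883 other genes averaging 20 RPKM or more. With quantile normalization it was -0.97, against -0.04 over all genes tested. It was 0.49 without day 0 library II, with 17 genes called higher and 2 lower, and -1.48 without day 0 library III, with 0 called higher and 43 lower. The direction between day 4 and day 0 therefore turned with the day 0 library kept.

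Both day 4 libraries lay below both day 0 libraries for 19 genes and above them for 2, against 33.3% and 17.9% of all genes tested. Rps4x had 82.8 and 137 RPKM at day 4, against 549 and 337 RPKM at day 0 (-2.01 ± 0.52, adjusted p = 0.0626). Rpl5 had 49.7 and 63.5 RPKM at day 4, against 238 and 144 RPKM at day 0 (-1.70 ± 0.43, adjusted p = 0.0586). Rpl12 had 60.8 and 36.2 RPKM at day 4, against 364 and 119 RPKM at day 0 (-2.13 ± 0.59, adjusted p = 0.0748). In these 3 genes the pairs did not overlap, and none passed the threshold. The 2 genes above were Rpl34 and Rpl9. Rpl34 had 0 reads in both day 0 libraries, where 3 reads would be worth 15.6 and 32.0 RPKM, more than its values at day 4, so its place above day 0 cannot be read at this depth. Rpl9 had 669.6 and 591 RPKM at day 4, against 559.7 and 122 RPKM at day 0 (1.26 ± 0.77, adjusted p = 0.336).

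Size of change went with coding length, taken from the GENCODE M21 annotation. Over the 77 genes Pearson's r between the log2 fold change and log2 coding length was -0.72 for day 7 against day 4, -0.74 for day 7 against day 0 and -0.23 for day 4 against day 0. These are descriptions over genes that share the same libraries. At day 7 against day 4 the median change was 4.30 in the 10 genes with a coding sequence of up to 300 bases, of which 7 rose, and 3.24 in 27 genes up to 450 bases, of which 24 rose. It was 2.38 in 19 genes up to 600 bases, of which 7 rose, and 2.16 in 21 longer genes, of which 7 rose.

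The same order held outside the family. Among other genes that averaged 20 RPKM or more, the median change at day 7 against day 4 was 2.58 in 135 genes up to 300 bases, 1.66 in 305 up to 450, 1.09 in 325 up to 600 and 0.02 in 1965 longer ones. The 76 mitochondrial ribosomal protein genes, which serve the organelle's own ribosome, had medians of 2.43, 2.40, 1.32 and 1.17 in the same classes, in 3, 20, 17 and 36 genes. The median of the cytosolic family at day 7 against day 4 was above both in each class. Against day 0 the gaps at day 7 between the cytosolic family and the other genes were narrower in every class. The medians were 4.22 against 3.48 up to 300 bases and 2.71 against 2.50 from 300 to 450 bases. They were 2.17 against 1.99 from 450 to 600 bases and 1.39 against 0.80 in longer genes. In the class from 300 to 450 bases the mitochondrial ribosomal protein genes had a median of 2.81 in that comparison, above the cytosolic family. The correlation with log2 coding length at day 7 against day 4 was -0.34 in 2730 other genes and -0.59 in the mitochondrial ribosomal protein genes. At day 7 against day 0 it was -0.36 and -0.71. The part that transcript length plays in the library preparation and in these changes was not tested.

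**Figure D4:**
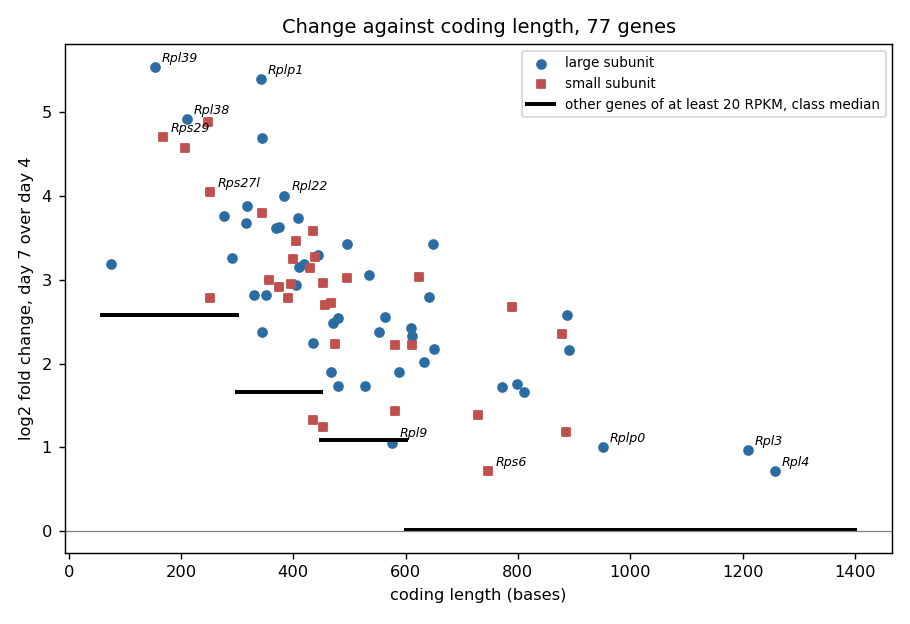
Log2 fold change, day 7 over day 4, against coding length in bases for the 77 genes, with large subunit genes as circles and small subunit genes as squares. Black bars are medians of other genes of at least 20 RPKM in 4 length classes, the last of which has no upper end. Changes are largest at the left, near Rpl39 at 5.53, and smallest in long genes such as Rpl4 at 0.72.

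The balance within the family was read after subtracting each library's median over the members. On that scale 20 genes lay higher in both day 7 libraries than in all 4 earlier libraries, against 1.01% of all genes tested, 23 lay lower, against 83.3%, and 38 overlapped. Centring on the family's own median makes the numbers above and below about equal. It also takes the family's rise from every other gene, so the shares of all genes tested follow from the centring and are no yardstick for these counts. The 20 were Rpl11, Rpl22, Rpl23, Rpl27, Rpl31, Rpl36, Rpl37, Rpl37a, Rpl38, Rpl39, Rplp1, Rplp2, Rps10, Rps15, Rps16, Rps21, Rps26, Rps27l, Rps28 and Rps29. The 23 included the low paralogs Rpl3l, Rpl10l, Rpl39l and Rps4l, none of which was called at day 7 against day 4 before centring.

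Rplp1 stood 1.96 and 2.15 above the median member on the log2 scale at day 7, against -0.63 and -0.35 at day 4 and 0.56 and 1.07 at day 0. Rpl39 stood at 0.46 and 0.6 at day 7, against -2.11 and -2.20 at day 4 and -1.26 and -1.93 at day 0. Rpl4 stood at -0.41 and -0.47 at day 7, against 1.69 in both day 4 libraries and 1.41 and 2.31 at day 0. In all 3 the day 7 pair was closer together than the gap to any earlier library.

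In limma on these centred values 5 genes were called higher and 12 lower at day 7 against day 4, against 0.296% and 76.9% of all genes tested. The median change of all genes tested was -3.65 on this scale, so those shares again follow from the centring. The 5 were Rpl39 (2.69), Rplp1 (2.54), Rpl38 (2.06), Rps29 (1.85) and Rplp2 (1.84), and the 12 included Rps6 and Rpl4 (-2.13 each), Rpl3 (-1.88), Rplp0 (-1.84) and Rpl9 (-1.79). Also among the 12 were the low paralogs Rpl10l (-3.99), Rpl3l (-3.72) and Rpl39l (-3.12). At day 7 against day 0 the calls were 8 higher and 10 lower, against 1.23% and 65.8%, led by Rps28 (4.47) and, among the lower ones, Rpl3l (-4.98). At day 4 against day 0 the calls were 1 higher, Rpl36 (2.84), and 0 lower, against 1.6% and 0.083%, with 6 higher and 3 lower at an unadjusted p under 0.05. Rpl36 had 75.6 and 65.1 RPKM at day 4, against 213 and 0 RPKM at day 0, so its call rests on the 0 in day 0 library III. Rps28 had 0 reads in that library too. In this fit the spread came wholly from the trend over all genes, not from a gene's own libraries, so the calls say little about a gene's own replicates.

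Of the paralogs, Rps27l had the largest change at day 7 against day 4. Rps27l, which p53 induces, had 604 and 704 RPKM at day 7, against 50.5 and 29.6 RPKM at day 4 (4.04 ± 0.41, adjusted p = 9.48e-04) and 33.4 and 27.3 RPKM at day 0 (4.39 ± 0.41, adjusted p = 6.24e-04). Rps27 had 921 and 839 RPKM at day 7, against 135 and 119 RPKM at day 4 (2.78 ± 0.56, adjusted p = 0.0158) and 222 and 82.6 RPKM at day 0. The level of Rps27l was 65.6% and 84.0% of that of Rps27 at day 7, against 37.5% and 24.9% at day 4 and 15% and 33.1% at day 0. The day 0 levels came from 5 and 2 reads of Rps27l and 44 and 8 of Rps27, so those percentages are uncertain.

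Rpl22l1, the paralog of Rpl22, had 182 and 149 RPKM at day 7, against 27.1 and 18.8 RPKM at day 4 (2.81 ± 0.39, adjusted p = 0.00328). It was above Rpl22 in 5 of 6 libraries, at 121% and 96.7% of it at day 7, against 343% and 202% at day 4 and 144% and 480% at day 0. The levels of Rpl22 came from 22 and 73 reads at day 4 and only 15 and 3 at day 0, so the day 0 percentages are uncertain. Rpl36al, the paralog of Rpl36a, had 26.8 and 33.4 RPKM at day 7, against 4.25 and 2.01 RPKM at day 4 (2.96 ± 0.52, adjusted p = 0.00915), and was at 0 reads in both day 0 libraries. Rpl7l1 had 23.4 and 23.8 RPKM at day 7, against 26.6 and 42.3 RPKM at day 4 (-0.49 ± 0.39, adjusted p = 0.388), while Rpl7 had 1034 and 1058 RPKM at day 7, against 246 and 439 RPKM at day 4. Rpl10l and Rpl39l, known from testis, reached at most 9.08 and 7.70 RPKM in the 6 libraries, and Rps4l at most 13.5 RPKM.

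The gene lists around the family were read in the same fit, in which 5.85% of all genes tested were called higher and 6.75% lower at day 7 against day 4, and 11.3% and 29.3% at day 7 against day 0. Of the 76 mitochondrial ribosomal protein genes 22 rose and 0 fell at day 7 against day 4 (median 1.40), and 45 rose and 0 fell at day 7 against day 0 (median 1.64). Gnb2l1, which codes for the small subunit scaffold RACK1, had 456 and 575 RPKM at day 7, against 47.7 and 99.1 RPKM at day 4 (2.88 ± 0.52, adjusted p = 0.0106).

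Of 8 elongation factor genes 2 rose at day 7 against day 4, Eef1b2 and Eef1d. Eef1a1, which brings aminoacyl-tRNA to the ribosome, had 1978 and 2120 RPKM at day 7, against 1132 and 1795 RPKM at day 4 (0.52 ± 0.82, adjusted p = 0.627), and Eef2, which moves the ribosome along the mRNA, had 270.5 and 272 RPKM at day 7, against 248 and 446 RPKM at day 4 (-0.29 ± 0.50, adjusted p = 0.653). Neither passed the test. Of 10 other mRNAs known to carry a TOP motif, 3 rose, Btf3, Nap1l1 and Eif3f, and 0 fell.

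Of 38 nucleolar factors of ribosome assembly 3 rose and 0 fell at day 7 against day 4 (median 0.68), where 5.85% of all genes tested were called higher, so the share that rose was near that of all genes. They were Fbl, the rRNA methyltransferase, Nop10, of the pseudouridine synthase complex, and Imp3. Nucleolin (Ncl) had 17.6 and 17.3 RPKM at day 7, against 8.51 and 21.5 RPKM at day 4 (0.34 ± 0.46, adjusted p = 0.582). Of 15 RNA polymerase I genes 1 rose, Znrd1, and 1 fell, Polr1a, the catalytic subunit, at 1.58 and 1.84 RPKM at day 7, against 8.85 and 9.29 RPKM at day 4 (-1.90 ± 0.45, adjusted p = 0.0297). Of 18 mTOR pathway genes 1 rose, Rheb, the activator of mTOR complex 1, and 2 fell, Mlst8 and Rps6kb2. With 5.85% of all genes called higher and 6.75% lower, counts of 1 or 2 in lists this short are near those of all genes and are no result about the lists.

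Myc, a driver of ribosomal protein and rRNA transcription, had 9.43 and 9.01 RPKM at day 7, against 2.18 and 5.74 RPKM at day 4 (1.14 ± 0.49, adjusted p = 0.167) and 17.7 and 12.6 RPKM at day 0. Of 11 MYC family genes 1 rose at day 7 against day 4, Mnt, and 1 fell, Mxd1, both of them coding for repressors that compete with MYC. Both counts are near the 5.85% higher and 6.75% lower of all genes tested. Mxd1 had 4.63 and 4.78 RPKM at day 7, against 205 and 143 RPKM at day 4 (-4.91 ± 0.37, adjusted p = 3.12e-04).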

How the data were processed

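The authors deposited 1 table of RPKM values per gene, which scale reads by the length of a gene's exons and the library's total, per the file headers. Per the submitters' processing notes, TopHat2 2.0.13, SAMtools 1.1 and the build mm9 were used, with no roles stated. RNA came from Qiagen RNeasy columns and libraries from NexteraXT and SMARTer v3 Ultra Low Input kits, per the labels' protocols. For the counter, annotation and strand handling nothing is given in the sources used here, so reads of overlapping antisense genes cannot be told apart. The 92 entries without a symbol were kept in library totals and tests. RPKM times length gave whole reads within 6.71e-05 of a read, and these gave totals and shares.

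Values were used as log2(RPKM + 1), which understates changes of low genes. Genes with at least 1 RPKM in at least 2 libraries (19279, all 81 members among them) were fitted with limma 3.58.1 in R 4.3.3 as 3 group means (lmFit, contrasts.fit, eBayes with a trend), with 3 residual and a median of 5.22 prior degrees of freedom. All p-values are two-sided and were adjusted by Benjamini-Hochberg over all genes tested. The fit was also run on simulated reads with known changes at day 7 and the same spread in every library. The real day 0 libraries differed more than those of day 7, so that run cannot vouch for the calls. Alternatives tried were 18. The same fit was run after centring each library on its median member. Promoters came from RefSeq on GRCm38.p6 and coding lengths from GENCODE M21, and both were joined by gene, not by coordinate. Values by library are given for some of the members with the largest or smallest changes and for several paralogs, in the days compared. The members, gene lists and alternatives were chosen with earlier results of these data known. Plots used matplotlib 3.10.9. A few listed genes, and another setting that needs one of them, are not reported here.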

Additional observations from a re-analysis of the deposited data

How the results depend on the processing

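No paired analysis was possible because the groups compared share fewer than 2 replicate numbers. Counts are of the 81 genes called. At day 7 against day 4, 45 higher and 0 lower became 15 higher with no filter, 22 with quantile normalization, 75 higher and 1 lower with limma-voom on recovered reads, 7 with reads thinned to the smallest library and 73 with only the 2 groups compared. Leaving out each replicate gave 0 to 74 higher and 0 lower. At day 7 against day 0, 46 higher and 1 lower became 16 and 0 with no filter, 5 and 2 with quantile normalization, 9 and 0 with thinned reads and 13 and 0 with only the 2 groups. With a mean of at least 5 RPKM 0 were lower, and with limma-voom 3 were lower. Leaving out each replicate gave 10 to 70 higher and 0 to 3 lower. At day 4 against day 0, 0 higher became 1 with a pseudocount of 0.1, and 0 lower became 3 with a mean of at least 5 RPKM, 12 with quantile normalization, 1 with limma-voom and 1 with thinned reads. Leaving out each replicate gave 0 to 17 higher and 0 to 43 lower. Counts over all genes in the same fits moved too. Those higher at day 7 against day 4 went from 1127 to 691 with no filter, 495 with quantile normalization and 2390 with limma-voom. They went to 382 with thinned reads and 1963 with only the 2 groups. Those higher at day 7 against day 0 went from 2183 to 1588 with no filter and 1211 with quantile normalization. They went to 953 with thinned reads and 1573 with only the 2 groups. The causes of these shifts were not tested, except that thinning and leaving out replicates use fewer reads or libraries.

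Over all genes tested, quantile normalization moved the median change at day 7 against day 4 by 0.85 on the log2 scale, to 0.04, beside 1.96 for the members, and at day 7 against day 0 by 1.13 with quantile normalization and by 0.17 with median ratios. Called members kept their direction in 810 of 810 alternative values at day 7 against day 4 and in 844 of 845 at day 7 against day 0. The exception was Rpl26, at -0.88 with thinned reads. Their calls were kept in 547 and 519 of these values.

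On the scale centred on the median member, calls at day 4 against day 0 were 1 higher and 0 lower. They became 3 higher with a pseudocount of 0.1, 2 with a mean of at least 5 RPKM, 0 with limma-voom, 2 higher and 1 lower with thinned reads, and 0 higher with only the 2 groups compared, with weights per library and without a trend. Leaving out each replicate gave 0 to 16 higher and 0 to 13 lower. At day 7 against day 4, 5 higher and 12 lower became 19 lower with limma-voom, 3 higher with thinned reads, 18 and 25 with only the 2 groups, 11 and 22 with weights and 2 and 4 without a trend. Leaving out each replicate gave 0 to 18 higher and 0 to 27 lower. At day 7 against day 0, 8 higher and 10 lower became 1 higher with limma-voom, 4 and 6 with weights and 3 and 3 without a trend. Leaving out each replicate gave 0 to 20 higher and 0 to 27 lower. Centred values reversed without day 0 replicate III for Rpl36 at day 4 against day 0 (-0.016, with a highest value of 5.69 over the fits that leave out a replicate) and for Rps18 at day 7 against day 0 (-0.39, highest 3.60).

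The share of reads at day 0 replicate II was 3.05% without haemoglobin genes in the total. Depth limits day 0 most, where 3 reads of a transcript 1 kb long are worth 9.29 and 19.01 RPKM.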
